A study of Mus musculus with 6 samples.

Results

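The miR-181 family was examined in the prefrontal cortex of aged mice, through the 6 mature miRNAs mmu-miR-181a-5p, mmu-miR-181a-1-3p, mmu-miR-181b-5p, mmu-miR-181c-5p, mmu-miR-181c-3p and mmu-miR-181d-5p. The mouse prefix mmu is left out below. They were picked by name and not by a filter on their measured values, although earlier results of these data were known. They made up 6 of the 1189 miRNA entries in the table. Small RNA was sequenced from the prefrontal cortex of 6 male C57BL/6 wild-type mice aged 18 months, 1 library per mouse, although the sample names carry 17M. The 3 mice of the postoperative neurocognitive disorder (PND) group had received 1.5% isoflurane for 30 min and then an exploratory laparotomy that lasted 30 min under the same anesthetic. The 3 mice of the control (CON) group had received neither as a treatment, so effects of anesthesia and of surgery cannot be told apart in this design. Lidocaine cream was put on the wound of the operated mice alone, and both groups had gone through behavioral tests before the tissue was taken. The last test, a Barnes maze, ended several days after the operation. For tissue collection after that test, deep isoflurane anesthesia was used, and the study's methods name no exception for CON. The comparison asked whether the family differed between PND and CON.

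A mature miRNA guides an Argonaute protein to messenger RNAs, and its bases 2 to 8, the seed, make most of the pairing with the target. One hairpin precursor can give a mature miRNA from each of its arms, named 5p and 3p, and hairpins that lie next to each other can be transcribed together. miR-181 is known for setting the sensitivity of T cells to antigen, and in the brain it has been studied in neurons and astrocytes, mostly after ischemia and in inflammation. The tissue was a mixture of cell types, so a lower level could come from fewer cells of a type or from less RNA per cell, and these cannot be told apart here.

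The mature sequences are shown because the members fall into 2 seed groups and differ by few bases. They are from RefSeq (GRCm38.p6), written 5′ to 3′ with the seed in capitals.
miR-181a-5p: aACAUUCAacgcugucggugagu
miR-181b-5p: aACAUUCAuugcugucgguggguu
miR-181c-5p: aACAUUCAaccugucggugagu
miR-181d-5p: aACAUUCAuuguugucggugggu
miR-181a-1-3p: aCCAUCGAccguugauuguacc
miR-181c-3p: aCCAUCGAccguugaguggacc

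The 4 members of the 5p arm shared the seed ACAUUCA, and the 2 members of the 3p arm shared the seed CCAUCGA. Outside the seed the differences were small. Counted from 1 at the 5′ end, miR-181a-5p and miR-181b-5p differed by A9U, C10U and A21G over 23 compared bases. miR-181b-5p and miR-181d-5p differed only by C12U over 23 compared bases, and miR-181b-5p is longer by its last base. The sequence of miR-181c-5p was that of miR-181a-5p with the base at position 11 left out. In the 3p arm, miR-181a-1-3p and miR-181c-3p differed by U16G and U19G over 22 bases. The mismatch rule used to count reads is not given in the sources used here, so the share of reads that could have moved between such near-identical members is unknown.

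The 6 members come from 3 pairs of neighboring hairpins. In the GRCm38 annotation, Mir181a-1 lies at chr1:137966455-137966541 and Mir181b-1 at chr1:137966639-137966718, both on the plus strand and 97 bases apart. Both are inside an intron of the non-coding gene Gm4258, and exons of the long non-coding RNA A430106G13Rik overlap Mir181a-1 in part and hold Mir181b-1 whole. Mir181a-2, at chr2:38852735-38852810, and Mir181b-2, at chr2:38853830-38853918, are on the plus strand, 1019 bases apart. Both lie in an intron of the nuclear receptor gene Nr6a1, which is read from the opposite strand. Mir181c, at chr8:84178873-84178961, and Mir181d, at chr8:84178716-84178787, are on the minus strand, 85 bases apart, in an intron of Nanos3. miR-181a-5p and miR-181b-5p each come from 2 hairpins with the same mature sequence, so their reads cannot be assigned to a locus. Mir181a-1 and Mir181c each give a member from both arms. The RefSeq hairpin of Mir181a-1 is shown with these arms in capitals, and that of Mir181c was not in the reference used.
Mir181a-1: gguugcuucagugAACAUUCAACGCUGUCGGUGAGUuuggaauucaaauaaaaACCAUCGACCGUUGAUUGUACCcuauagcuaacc

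Levels are given in counts per 1000000 miRNA reads (CPM) as deposited. The libraries held 17600766 to 19471226 reads in the PND group and 14849461 to 16093467 in the CON group, and no 2 libraries of a group agreed within sampling noise. All 5 neuronal marker miRNAs looked up were listed, and the neuron-enriched miR-128-3p alone took 17.6 to 23.2% of the reads in PND and 21.6 to 29.2% in CON. The highest share was that of CON replicate 2. With so large an entry in the total, the values of the other miRNAs move with it. Among the 361 entries with a mean of at least 10 CPM, 79.2% had a positive log2 fold change of PND against CON, with a median of 0.14. With the total taken without miR-128-3p, 58.3% of the other 360 entries were positive, with a median of 0.05.

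The family was abundant, and 1 member held most of it. Summed over the 6 members, its level was 7073, 7988 and 7804 CPM in the PND libraries and 7394, 6907 and 6889 CPM in the CON libraries. It thus took 0.689 to 0.799% of all miRNA reads. The groups overlapped, since CON replicate 1 lay above PND replicate 1. The mean was 7621 ± 484 CPM (SD, n = 3) in PND and 7063 ± 286 CPM (SD, n = 3) in CON, a log2 difference of 0.11 in an exact permutation test with p = 0.2 (two-sided). With 3 mice against 3 the smallest p of this test is 0.1. The sign of this difference depended on the scaling, since it was -0.014 with TMM factors and -0.044 with DESeq2 size factors. For the 4 members of the 5p arm alone the log2 difference was 0.10, with an exact permutation p of 0.2.

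miR-181a-5p was the dominant member. It held 67.9, 67.8 and 70.4% of the miR-181 sum in the PND libraries and 69.2, 68.6 and 67.7% in the CON libraries. Its share was 68.6 ± 1.06% (SD, n = 6) over all libraries, and the groups overlapped. The difference of PND minus CON was 0.18 percentage points, with p = 0.8 in an exact permutation test (two-sided). miR-181b-5p held 17.1 to 21.1%, miR-181d-5p 7.00 to 7.69%, miR-181a-1-3p 2.24 to 3.31%, miR-181c-3p 0.640 to 0.918% and miR-181c-5p 0.378 to 0.679%. Such shares do not depend on the scaling between libraries.

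The members kept the same order in every library, from miR-181a-5p over miR-181b-5p, miR-181d-5p, miR-181a-1-3p and miR-181c-3p down to miR-181c-5p. miR-181a-5p was 3.46-fold above miR-181b-5p on average, with single libraries from 3.26 to 4.12. miR-181b-5p was 2.72-fold above miR-181d-5p (range 2.24 to 2.97), and miR-181d-5p was 2.56-fold above miR-181a-1-3p (range 2.23 to 3.17). miR-181a-1-3p was 3.71-fold above miR-181c-3p (range 3.37 to 4.10). The closest neighbors were the 2 arms of Mir181c, with miR-181c-3p 1.35-fold above miR-181c-5p (range 1.22 to 1.69). Each of the 5 neighboring pairs had the same direction in 6 of 6 libraries, and no single ratio came down to 1. The pairs were set by ranking the members on these same libraries, so the ratios describe the order and no test of them is reported as a result. With 1 library left out, the smallest p of a sign-flip test on 5 libraries is 0.0625, so no such ratio can pass 0.05.

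**Figure D1:**
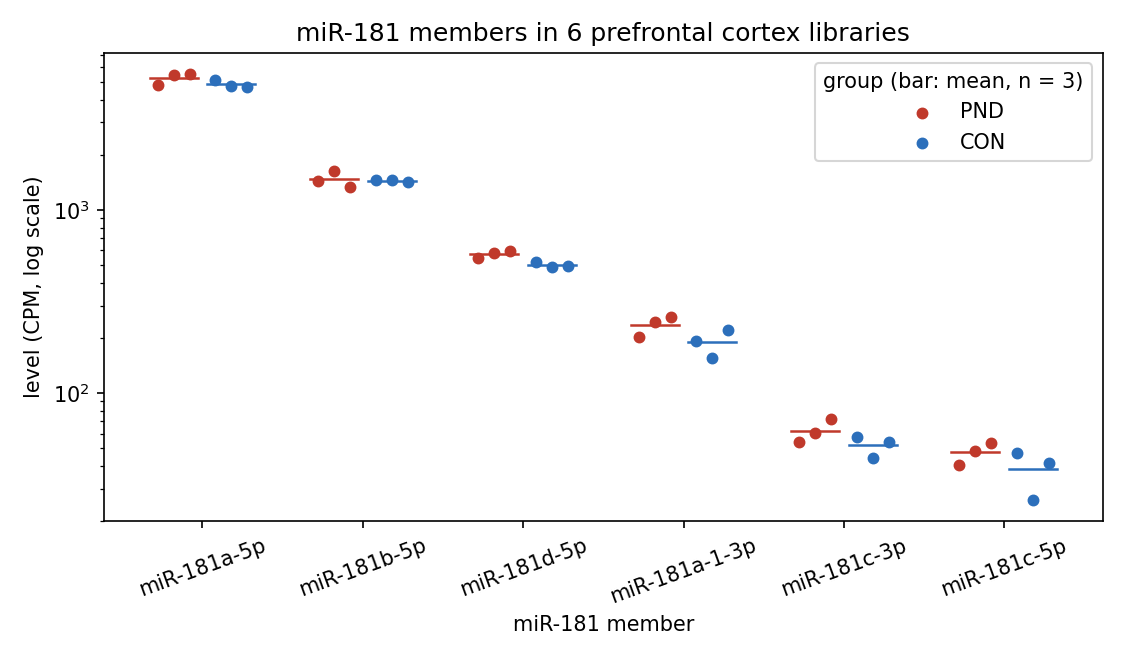
Level of each miR-181 member in CPM on a log axis, with 1 point per library, PND in red and CON in blue, and bars at the group means (n = 3). From left to right the members step down, with miR-181a-5p at 4664 to 5494 CPM and miR-181c-5p at 26.1 to 53.0 CPM, while PND and CON points lie side by side and are separate only for miR-181d-5p.

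The 5p members are described first, from the most abundant. miR-181a-5p, the member best known from T cell development, measured 4799, 5418 and 5494 CPM in PND and 5120, 4738 and 4664 CPM in CON. It ranked 29th to 34th among all entries in single libraries. PND replicates 2 and 3 were the highest libraries, but PND replicate 1 lay below CON replicate 1, so the groups overlapped. The means were 5237 ± 381 CPM in PND and 4841 ± 244 CPM in CON (SD, n = 3). On the log2(CPM + 1) scale the fold change was 0.11 (SE 0.09, 95% interval -0.10 to 0.33), with an adjusted p of 0.77 by limma, and it turned to -0.010 with TMM factors and -0.040 with DESeq2 size factors.

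miR-181b-5p, which is made next to miR-181a-5p at both of its loci, measured 1434, 1638 and 1334 CPM in PND and 1459, 1455 and 1418 CPM in CON. PND held both the highest and the lowest library, and the 3 CON libraries lay between them. The means were 1468 ± 155 CPM in PND and 1444 ± 22.9 CPM in CON (SD, n = 3). The log2 fold change was 0.02 (SE 0.10, 95% interval -0.22 to 0.26), with an adjusted p of 0.97 by limma. Here too the sign changed with the scaling, to -0.10 with TMM factors, -0.13 with DESeq2 size factors and -0.066 with the library total taken without miR-128-3p.

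miR-181d-5p, which is made with miR-181c from the third locus, measured 544, 580 and 594 CPM in PND and 518, 489 and 492 CPM in CON. All PND libraries lay above all CON libraries, and it was the only member whose groups did not overlap. The means were 573 ± 25.7 CPM in PND and 499 ± 15.7 CPM in CON (SD, n = 3). The fold change was 1.15 with a 95% interval from 0.983 to 1.34, which is a log2 fold change of 0.20 (SE 0.10). limma gave an unadjusted p of 0.0748 and an adjusted p of 0.77, and the exact permutation test gave p = 0.1, the smallest it can give. Of all 1189 entries, 94 (7.91%) were higher in PND with no overlap and 24 (2.02%) higher in CON, and among the 361 entries with a mean of at least 10 CPM, 31 (8.59%) were higher in PND. The groups overlapped when TMM factors or DESeq2 size factors replaced the deposited scaling, and did not overlap when the total was taken without miR-128-3p. An unadjusted limma p under 0.05 was reached only without PND replicate 1 (log2 fold change 0.23), without CON replicate 1 (0.22) or in limma without trend. The log2 fold change of miR-181d-5p was smaller under the other scalings, at 0.11 with the total without miR-128-3p, 0.074 with TMM factors and 0.045 with DESeq2 size factors.

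miR-181c-5p measured 40.4, 48.5 and 53.0 CPM in PND and 46.9, 26.1 and 41.6 CPM in CON. CON replicate 2 was far below the other libraries, at 388 reads, and the groups overlapped. The means were 47.3 ± 6.41 CPM in PND and 38.2 ± 10.8 CPM in CON (SD, n = 3). The log2 fold change was 0.33 (SE 0.23, 95% interval -0.20 to 0.86), with an adjusted p of 0.77 by limma. Its interval was the widest of the 6, and without CON replicate 2 the log2 fold change was 0.087. It was 0.21 with TMM factors and 0.18 with DESeq2 size factors.

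The 3p members were less abundant. miR-181a-1-3p, the 3p arm of the Mir181a-1 hairpin printed above, measured 202, 243 and 258 CPM in PND and 193, 154 and 221 CPM in CON. CON replicate 3 lay above PND replicate 1, so the groups overlapped. The means were 234 ± 29.1 CPM in PND and 189 ± 33.3 CPM in CON (SD, n = 3), and the log2 fold change was 0.31 (SE 0.16, 95% interval -0.07 to 0.69), with an adjusted p of 0.77 by limma. It was 0.17 without CON replicate 2, 0.19 with TMM factors and 0.16 with DESeq2 size factors.

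miR-181c-3p, the other arm of the Mir181c hairpin, measured 53.9, 60.3 and 71.6 CPM in PND and 57.3, 44.2 and 53.8 CPM in CON. PND replicate 3 was the highest library and CON replicate 2 the lowest, with overlap between the groups. The means were 62.0 ± 8.99 CPM in PND and 51.8 ± 6.79 CPM in CON (SD, n = 3), and the log2 fold change was 0.25 (SE 0.16, 95% interval -0.12 to 0.63), with an adjusted p of 0.77 by limma. It was 0.15 without either of those libraries, 0.13 with TMM factors and 0.10 with DESeq2 size factors. At 388 to 1269 reads per library, miR-181c-5p and miR-181c-3p were the members with the fewest reads behind them.

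None of the 6 members passed a call rule. 0 of 6 had an unadjusted limma p under 0.05, against 61 of all 1189 entries (5.13%), and 0 of 6 had an adjusted p under 0.05, against 5 entries (0.421%). Those 5 had no miRBase name, and some of them had identical values. They had 0 CPM in every CON library and at most 1.07 CPM in PND, far below the members. With an unadjusted p under 0.05 and a change of more than 2-fold, 0 of 6 members and 1 entry (0.0841%) were called. All 6 log2 fold changes were positive with a median of 0.23, beside the median of 0.14 for the 361 entries with a mean of at least 10 CPM. With TMM factors these medians were 0.10 and 0.02, with 4 of 6 members positive, and with DESeq2 size factors they were 0.07 and -0.01, again with 4 of 6 positive. With the total taken without miR-128-3p the medians were 0.14 and 0.05, with 5 of 6 members positive. Without CON replicate 2, the library with the high miR-128-3p share, the medians were 0.12 for the members and 0.04 for the 361 entries. The part of that library in the positive values was otherwise not tested.

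**Figure D2:**
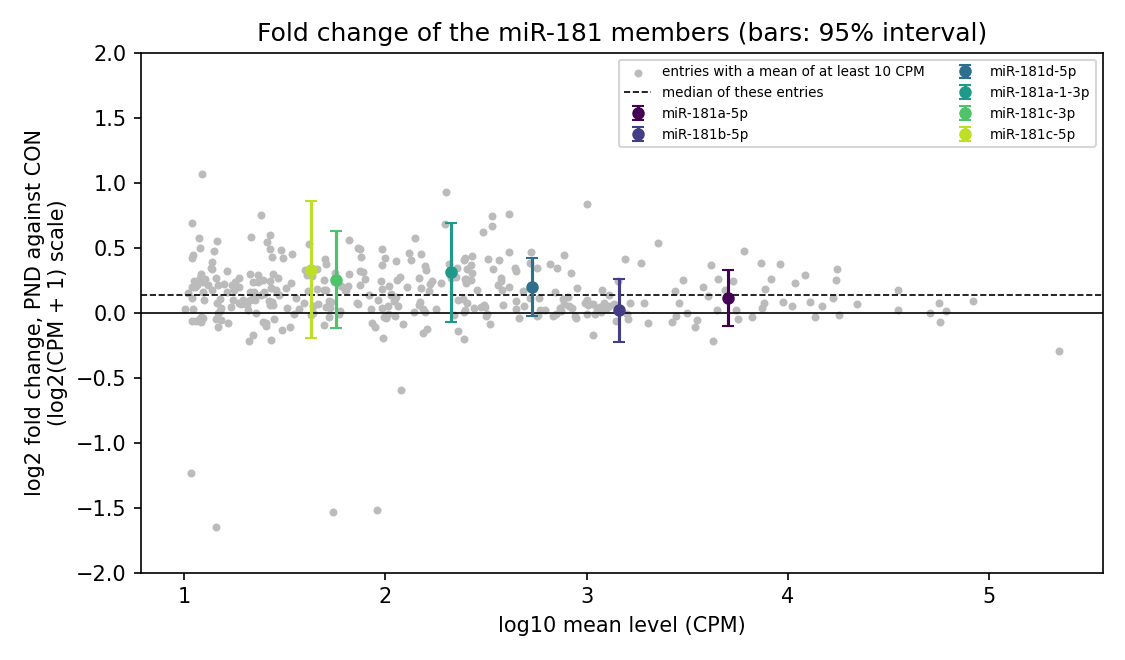
Log2 fold change of PND against CON on the log2(CPM + 1) scale (y axis) by log10 mean CPM (x axis), with the 361 entries of at least 10 CPM as gray points, the miR-181 members in color with 95% intervals, and a dashed line at the median of 0.14. All 6 intervals include 0 and the members lie within the cloud of other entries, above 0 for all 6 as deposited but below 0 for miR-181a-5p and miR-181b-5p with TMM or DESeq2 scaling.

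**Figure D3:**
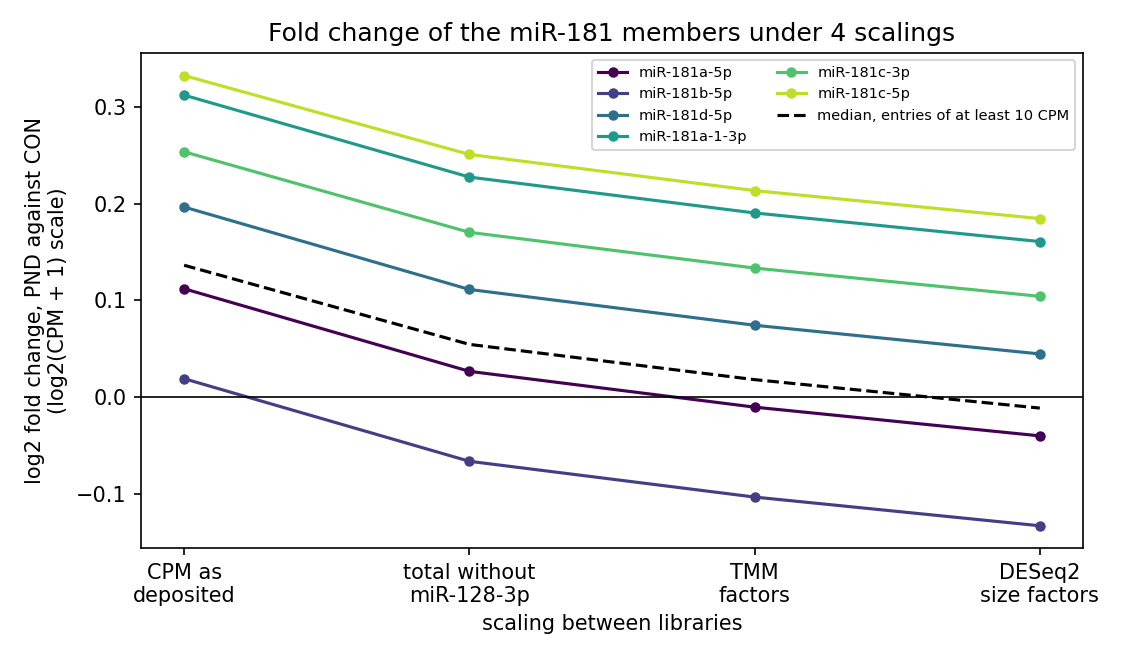
Log2 fold change of PND against CON (y axis, log2(CPM + 1) scale) for each member under 4 scalings between libraries (x axis), with the median of the entries of at least 10 CPM dashed. The members and the median move down together, miR-181b-5p from 0.02 to -0.13 and miR-181a-5p from 0.11 to -0.040, and the other 4 members stay above 0 under all 4 scalings.

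The spread between mice of a group set how small a change could be seen. The SD of log2 values within groups was 0.06 for miR-181d-5p, 0.09 for miR-181a-5p and 0.11 for miR-181b-5p, all below the median of 0.19 over the 361 entries. It was 0.20 for miR-181c-3p, 0.22 for miR-181a-1-3p and 0.34 for miR-181c-5p. The 3 members with the most reads were thus the most even between mice. The 95% interval of miR-181a-5p ended at a log2 fold change of 0.33 and that of miR-181b-5p at 0.26. The highest upper end of any member was 0.86, for miR-181c-5p. With the deposited scaling, a 2-fold rise thus lay outside the interval of every member.

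Within the family, the composition was close in both groups. miR-181d-5p held 7.69, 7.26 and 7.61% of the miR-181 sum in PND and 7.00, 7.08 and 7.13% in CON. These groups did not overlap, and the mean difference was 0.449 percentage points. The nearest libraries were PND replicate 2, with a 95% exact Clopper-Pearson interval of 7.12 to 7.39%, and CON replicate 3, with 6.98 to 7.29%, so their counting intervals overlapped. These intervals cover counting error only and not the spread between mice. The share of miR-181d-5p was the only one of the 6 without overlap, and it was not tested. With 3 mice against 3, even full separation cannot bring an exact permutation p below 0.1. miR-181b-5p held 20.3, 20.5 and 17.1% in PND and 19.7, 21.1 and 20.6% in CON, and the low library, PND replicate 3, was also the one with the highest share of miR-181a-5p.

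**Figure D4:**
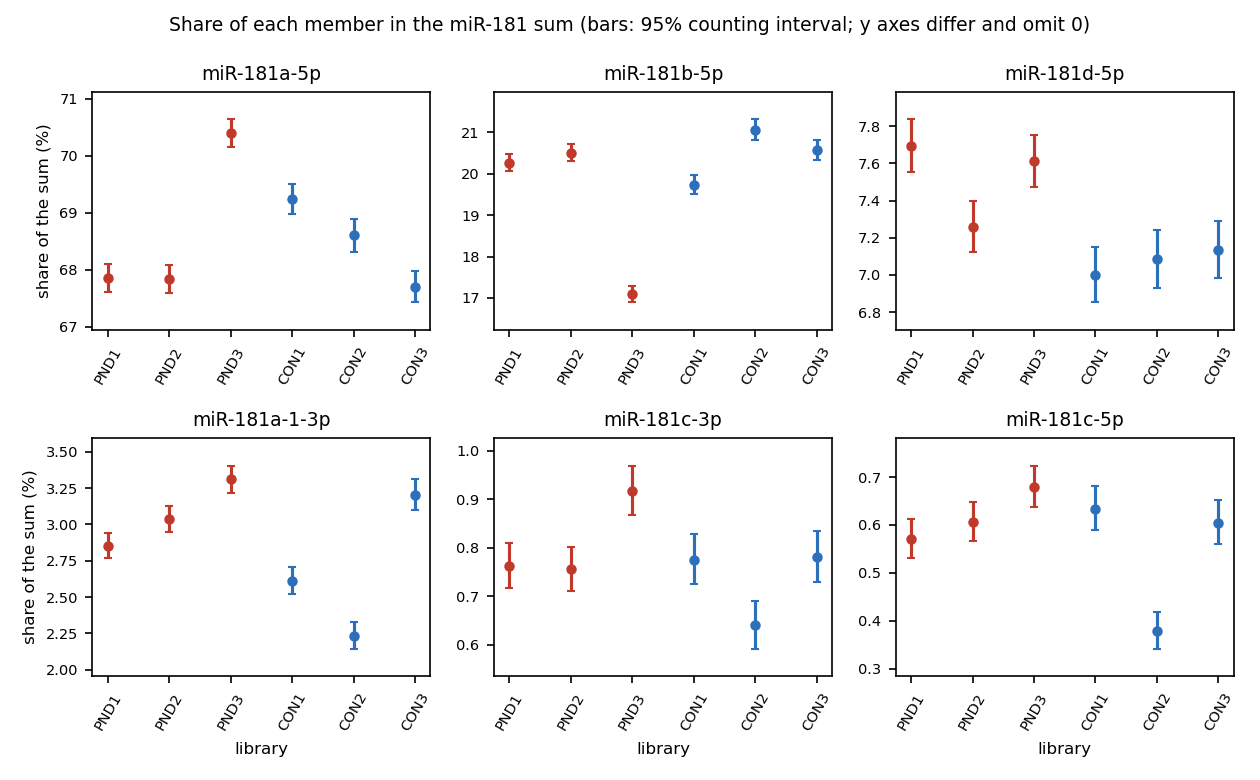
Share of each member in the miR-181 sum (percent, y axes differ and do not start at 0) in each of the 6 libraries, PND in red and CON in blue, with 95% counting intervals as bars. Only the miR-181d-5p panel has all PND points (7.26 to 7.69%) above all CON points (7.00 to 7.13%), PND replicate 3 stands high for miR-181a-5p and low for miR-181b-5p, and CON replicate 2 stands low for miR-181c-5p.

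Ratios between members are free of the scaling, and 4 of them were compared between the groups. The ratio of miR-181a-5p to its neighbor miR-181b-5p was 3.35, 3.31 and 4.12 in PND and 3.51, 3.26 and 3.29 in CON, with a log2 difference of 0.09 (exact permutation p = 0.5). The higher value of PND replicate 3 made that difference, since without this library it was -0.0097. For the Mir181c and Mir181d neighbors, miR-181d-5p exceeded miR-181c-5p by 11.0 to 18.7 times. The ratio of miR-181c-5p to miR-181d-5p was 0.0742, 0.0836 and 0.0892 in PND and 0.0906, 0.0534 and 0.0847 in CON, with a log2 difference of 0.14 (exact permutation p = 0.9), which turned to -0.093 without CON replicate 2. None of the 4 ratios separated the groups, and the adjusted p of the exact permutation tests was 0.9 for each.

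The other 2 ratios compared the arms. The ratio of miR-181a-5p to miR-181a-1-3p was 23.8, 22.3 and 21.3 in PND and 26.5, 30.7 and 21.1 in CON, a log2 difference of -0.20 (exact permutation p = 0.4). This difference was -0.077 without CON replicate 2 and -0.35 without CON replicate 3. miR-181a-5p also comes from Mir181a-2, so this is not a ratio within 1 hairpin. The ratio of miR-181c-5p to miR-181c-3p was 0.749, 0.803 and 0.740 in PND and 0.818, 0.591 and 0.774 in CON, a log2 difference of 0.08 (exact permutation p = 0.9), which turned to -0.059 without CON replicate 2. At Mir181c the 3p arm was thus the higher one in all 6 libraries.

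The near balance of the Mir181c arms was set beside other hairpins. Among 161 hairpins with both arms listed, each arm of 1 hairpin only and a higher arm of at least 10 CPM, the 3p arm was the higher one in 80. The higher arm exceeded the lower one by a median of 35.2 times, against 1.33 times for Mir181c. Mir181c was among the 8 hairpins (4.97%) with a ratio of 1.33 or less. The remaining listed arms of the family were rare. Over the 6 libraries together, miR-181b-1-3p had 204 reads, miR-181b-2-3p 26 and miR-181d-3p 13, beside 509731 for miR-181a-5p, 147076 for miR-181b-5p and 54403 for miR-181d-5p. miR-181a-2-3p, the 3p arm of Mir181a-2, was not among the 9 miR-181 entries listed, so no level can be given for it.

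Summed by seed, the family stood among the leading miRNA groups of the tissue. Of the 1189 entries, 997 were matched to a RefSeq mature sequence, holding 94.3 to 95.3% of the reads, and they had 856 different seeds. The seed ACAUUCA of the 4 members of the 5p arm had a mean of 7074 CPM and ranked 19th, from 16th to 20th in single libraries. Just above stood AUACAAG, the seed of miR-381-3p from the imprinted miRNA cluster of the Dlk1 and Dio3 locus, with 7324 CPM. Just below stood UUUUUGC, the seed of the brain-enriched miR-129-5p, with 6651 CPM. The seed CCAUCGA of miR-181a-1-3p and miR-181c-3p had 269 CPM and ranked 90th.

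The miRNAs whose levels followed miR-181a-5p most closely over the 6 libraries were named from 355 miRNAs of at least 10 CPM outside the family. They were miR-23b-3p (Pearson r 0.979, Spearman rho 0.886), miR-26b-5p (0.963 and 0.943), miR-16-5p (0.962 and 0.771), miR-31-5p (0.948 and 0.943) and miR-93-5p (0.924 and 0.943). By Spearman rho, 19 miRNAs reached the fifth highest value, and 3 of these 5 were among them. All points share the library total and its miR-128-3p share, so these values are descriptions of 6 libraries.

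miRNAs linked to brain inflammation were read beside the family, since miR-181 has been studied in that setting. Of 10 such miRNAs, 1 had an unadjusted limma p under 0.05 and was higher in PND. None was lower in PND at that limit, and none had an adjusted p under 0.05. The background of that call was 5.13% of all entries. The log2 fold changes of the 10 ran from -0.23 to 0.69. Their median was 0.25, beside 0.14 for the 361 entries of at least 10 CPM. The 1 that passed was miR-34a-5p, a p53 target, with 105, 140 and 142 CPM in PND and 90.0 to 106 CPM in CON. Its log2 fold change was 0.40 (SE 0.15), with an adjusted p of 0.77 by limma. The log2 fold change was 0.28 with TMM factors and 0.25 with DESeq2 size factors, and under both the unadjusted call was lost, whereas it was kept with the total without miR-128-3p. PND replicate 1 lay within the CON range, so its groups overlapped.

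Markers of other cell types were read for the same reason. The summed levels of the neuron, oligodendrocyte, leukocyte and microglia, red blood cell, endothelium, mural cell and epithelium lists all overlapped between PND and CON. All 5 leukocyte and microglia markers were listed, with sums of 305 to 337 CPM in PND and 283 to 333 CPM in CON, and 1 of them, miR-142a-5p, had an unadjusted limma p under 0.05 and was higher in PND by 0.51 on the log2 scale (adjusted p = 0.77 by limma). This miRNA kept its unadjusted call under the other 3 scalings. Its groups did not overlap, at low levels of 1.85 to 2.43 CPM in PND and 0.741 to 1.64 CPM in CON. Of all 1189 entries, 7.91% were likewise higher in PND with no overlap. The log2 fold changes of the 5 leukocyte and microglia markers ran from -0.23 to 0.51, with a median of 0.25. Of the 2 mural cell markers, miR-145a-5p passed the same limit and was higher in PND by 0.34 on the log2 scale (adjusted p = 0.77 by limma), a call lost under the other 3 scalings. No member of the other 5 lists passed an unadjusted p of 0.05. The 9 epithelial markers summed to 147 to 184 CPM in PND and 68.5 to 1649 CPM in CON, with the highest value in CON replicate 1. Within CON, that library was the highest for every member but miR-181a-1-3p, and without it the median log2 fold change was 0.28 for the members and 0.21 for the 361 entries. PND replicate 1 stood apart for the red blood cell markers, which summed to 101 CPM there and to 31.9 to 54.7 CPM in the other 5 libraries. Its level of miR-451a, the main miRNA of red blood cells, was 40.9 CPM, beside 0.621 to 3.08 CPM in the others. Within PND, this library was the lowest for every member but miR-181b-5p, and without it the median log2 fold change was 0.29 for the members and 0.16 for the 361 entries. The part of these cell types in the miR-181 values was not tested.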

How the data were processed

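Small RNA was profiled in 6 prefrontal cortex libraries, grouped by the treatment label. The deposited values were CPM per miRNA, which the authors made after mapping. The submitters' notes name Bowtie 0.12.2 and the builds mm8 and mm9 without a role, and the values carry no coordinates, so loci are given in GRCm38. The labels name a VAHTS total RNA kit, whereas the study's methods name an NEBNext small RNA kit. All values (100%) were whole multiples of 1 read within 0.02 reads, which gave 14849461 to 19471226 reads per library and a floor of 3 reads at 0.154 to 0.202 CPM. Of 1189 entries, 33 had no miRBase name. log2(CPM + 1) values of all entries were tested with limma 3.58.1 (trend, two-sided), with Benjamini-Hochberg adjustment over all entries. Sums, shares and ratios were compared by exact permutation tests. Alternatives used edgeR 4.0.16 and DESeq2 1.42.0; edgeR's quasi-likelihood test on the recovered reads called 50 entries at an unadjusted p under 0.05 and 5 after adjustment. The tests were checked on simulated data with 4-fold changes only. There the main limma fit recovered 157 of 200 changed entries at an adjusted p under 0.05 and called 4 unchanged ones. Changes as small as those of the members were not simulated, so the check does not show whether they could be detected. The members and lists were chosen with earlier results of these data known. Named were all 6 members, other listed miR-181 arms, the 5 miRNAs most like miR-181a-5p, neighboring seeds and list members with an unadjusted p under 0.05. How well each miRNA sequence was captured in the libraries, which bears on levels compared between members, was not tested.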

Additional observations from a re-analysis of the deposited data

How the results depend on the processing

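No miR-181 member passed an adjusted p of 0.05 in limma, edgeR or DESeq2 under any alternative, with adjusted p from 0.57 to 0.996. Of 171 recomputed values for 19 results, 115 kept direction and side of the threshold. Another 30, the order ratios with 1 library left out, kept their direction but could not pass 0.05 with 5 libraries. The scaling turned the sign of the log2 fold change of miR-181a-5p, to -0.010 with TMM factors, -0.040 with DESeq2 size factors, -0.013 in edgeR and -0.044 in DESeq2, and that of miR-181b-5p, to -0.10, -0.13, -0.10 and -0.13 in the same order and to -0.066 with the total without miR-128-3p. The log2 difference of the miR-181 sum became -0.014 with TMM factors and -0.044 with DESeq2 size factors. For miR-181d-5p the log2 fold change of 0.20 passed an unadjusted p of 0.05 in limma without trend, without PND replicate 1 (0.23) and without CON replicate 1 (0.22), with log2 fold changes of 0.17 to 0.23 over the libraries left out in turn, but of 0.11 with the total without miR-128-3p, 0.074 with TMM factors, 0.045 with DESeq2 size factors, 0.072 in edgeR and 0.041 in DESeq2. The number of members higher in PND with no overlap, an alternative chosen after seeing the data, was 0 with TMM factors (5.38% of all entries) and 0 with DESeq2 size factors (5.13%). It was 1 to 5 of 6 with 1 library left out, namely 5 without PND replicate 1, 3 without CON replicate 1 and 2 without CON replicate 3, where 33.2%, 27.4% and 21.6% of the 361 entries of at least 10 CPM had no overlap, against 8.59% with all libraries. Leaving out 1 library gave log2 fold changes of -0.062 (without PND replicate 2) to 0.086 for miR-181b-5p, and differences in the share of miR-181a-5p of -0.67 (without PND replicate 3) to 0.61 percentage points, with -0.23 without CON replicate 3. It gave differences in log2 ratio of -0.0097 to 0.15 for miR-181a-5p to miR-181b-5p, -0.093 to 0.29 for miR-181c-5p to miR-181d-5p, -0.35 to -0.077 for miR-181a-5p to miR-181a-1-3p and -0.059 to 0.17 for miR-181c-5p to miR-181c-3p. The order of the members had log2 ratios between neighbors, from the top, of 1.74 to 1.81, 1.42 to 1.50, 1.29 to 1.40, 1.86 to 1.92 and 0.37 to 0.46 with 1 library left out. By Spearman rho in place of Pearson r, 3 of the 5 miRNAs most like miR-181a-5p were shared. Entries with an unadjusted p under 0.05 numbered 61, against 28 in DESeq2, 5 among the 361 entries of at least 10 CPM (fewer entries tested) and 31 to 91 with 1 library left out. With an adjusted p under 0.05 they numbered 5, against 0 among those 361 entries, in limma without trend and with the replicate block, and 0 to 3 with 1 library left out. Deviations of same-numbered libraries correlated by -0.13, 0.12 and 0.51, too few values to decide on pairing. The fit with the replicate block called 56 entries at an unadjusted p under 0.05 and gave 0.11 for miR-181a-5p, 0.02 for miR-181b-5p, 0.20 for miR-181d-5p, 0.31 for miR-181a-1-3p, 0.25 for miR-181c-3p and 0.33 for miR-181c-5p. The cause of these changes was not tested.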
